A study of Mus musculus with 2 samples.

Results

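Late erythroid cells of mouse bone marrow are described here as the cells in which hemoglobin transcripts made up at least 75% and less than 90% of all transcripts counted. A cell barcode was kept with at least 500 unique molecular identifiers (UMIs, 1 per captured transcript) and at most 20% of them from mitochondrial genes. The hemoglobin share was the sum of Hbb-bt, Hbb-bs, Hba-a1 and Hba-a2 over all UMIs of the barcode. This window held 5561 of 33691 kept cells, 4100 of 19764 in the control library and 1461 of 13927 in the DKO library. The cells were chosen by this measured share, so the levels of these 4 genes describe the choice and are not a finding. It is a range along a continuous measure and not a separate cell type.

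Late erythroblasts condense their nucleus, expel it and become reticulocytes, which go on making hemoglobin from a stock of stable mRNA while they clear their mitochondria and ribosomes. Hemoglobin mRNA comes to dominate the cell because most other transcripts are shut off and degraded, whereas a small set of late erythroid mRNAs persists. Transcripts kept in the nucleus leave with it, so they mark cells that have not yet expelled their nucleus.

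The study examined the helicase gene Ddx41 in blood formation. Total bone marrow was flushed from the femurs with PBS and loaded at a viability of at least 80% on the Chromium 3' v3 droplet system. This system counts each transcript from its 3' end. Controls were Ddx41fl/fl littermates without the VavCre transgene and with wild-type cGas. DKO mice carried VavCre:Ddx41fl/fl and lacked cGas (cGAS-/-), the gene of a sensor of DNA in the cytosol that triggers the interferon response. Mice of both genotypes were 2 months old, and Vav-Cre is active in hematopoietic stem and progenitor cells and their progeny. Each genotype had 1 library, so differences between mice of a genotype are unknown. No test between genotypes is given, and cells are not replicates. The 95% intervals account for counting error alone.

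The control library held 135693452 UMIs in all and the DKO library 117725934. Median depth of the kept barcodes was 4764.5 UMIs (control) and 6954 UMIs (DKO). Inside the window the control cells held 21268973 UMIs, of which 3021764 were not hemoglobin, and the DKO cells 12288544 and 1868807. A control cell in the window had a median of 5353.5 UMIs, 679.5 of them from other genes, with 275 genes seen. The DKO medians were 8291 UMIs, 1048 of them from other genes, with 325 genes seen. DKO cells were thus deeper by 1.55 times, and in the 40 to 75% range they were deeper by 1.70 times. Thinned to 1000 UMIs per cell, which left out 118 control and 26 DKO cells, the median was 86 genes in control and 82 in DKO cells. B cells, taken as barcodes with at least 3 UMIs of Cd79a and Cd79b, showed 640 and 661 genes at the same depth. That depth includes hemoglobin UMIs, and the rule leaves window cells few others. The lower gene number of window cells is thus in large part built in and is not a finding. The mitochondrial share had a median of 0.202% in control and 0.177% in DKO cells. The libraries shared 80 kept barcodes, 4 of them in the window.

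The label came with 4 markers named for this stage. They were chosen with earlier results of these data known, so their levels describe the window and are no independent check of the label. All 4 were at least 2-fold higher than in the 40 to 75% range in both libraries, relative to non-hemoglobin UMIs. Scaled to all UMIs, only Bpgm stayed past 2-fold in both, and Isg15 had log2 differences of -0.22 in control and 0.14 in DKO cells. Levels are given throughout as UMIs per 1000000 UMIs that are not from the 4 hemoglobin genes, and as 3' counts they are not divided by gene length. Isg15, a ubiquitin-like modifier induced by interferon, had a level of 5473 in control and 2522 in DKO cells (16537 and 4714 UMIs). Bpgm, the mutase that makes the phosphate compound lowering the oxygen affinity of hemoglobin, had 19826 and 13268. Tent5c, a noncanonical poly(A) polymerase, had 6191 and 9659. Mkrn1, an RNA-binding ubiquitin ligase, had 18507 and 15843. Against the 40 to 75% range the control log2 differences ran from 1.34 for Isg15 to 2.71 for Bpgm, and the DKO differences of Isg15, Mkrn1 and Tent5c were 1.61, 2.55 and 2.67. The markers separated the window less clearly from the reticulocyte-like range of 90% or more. There Bpgm, Tent5c and Mkrn1 were higher than in the window in both libraries, and Isg15 was lower.

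Thinned to the same depth, Bpgm was seen in 91.8% of control and 82.6% of DKO window cells, against 2.76% and 1.38% of B cells, which should lack it. Tent5c was seen in 56.4% and 74.1% (B cells 1.65% and 1.26%), and Mkrn1 in 90.1% of control cells (B cells 8.19%). Isg15 was seen in 30.5% of control and 16.0% of DKO window cells, against 1.73% and 0.565% of B cells. Without thinning, at median depths of 5353.5 and 8291 UMIs in the window and 2796 and 3903 in B cells, the Isg15 shares were 57.8% and 42.2% in the window and 6.19% and 2.56% in B cells. The window thus stood apart from B cells, but Isg15 did not mark it against the range below. At 40 to 75% Isg15 was seen in 34.1% of thinned control cells, more than in the window, and in 14.8% of thinned DKO cells. The UMIs of Isg15 were spread unevenly, with a median of 1 and a highest count of 145 per control cell, and a median of 0 and a highest count of 154 per DKO cell.

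Many cells lay next to the upper threshold. In the last percentage point below 90% there were 678 control cells (16.5% of the window) and 342 DKO cells (23.4%), and 544 and 492 cells lay in the first point above it. At the lower threshold 82 control and 60 DKO cells lay in the first point inside and 73 and 56 in the last point outside. Levels ran on across both thresholds. Bpgm was at 26435 just inside and 27637 just outside 90% in control cells, and at 20562 and 21447 in DKO cells. At 75% it was at 8319 just outside and 9892 just inside in control cells, and at 6668 and 6798 in DKO cells.

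The targeted genes came first as a check of the genotypes, and in these cells they were near the detection limit. The window cells gave 16 control and 3 DKO UMIs of Ddx41 (chr13:55530410-55536658, minus strand). As DKO over control this is a log2 ratio of -1.39, with an interval of -4.14 to 0.08 that includes 0. For Cgas (chr9:78430526-78443237, minus strand) they gave 5 control UMIs and 0 DKO UMIs. The interval of the DKO level reaches 1.97, above the control level of 1.65. A 3' tag counts transcripts that keep their 3' end, whether or not an internal exon is missing. At this depth neither gene therefore checks the genotype of the window cells. Outside the window both transcripts were seen in the DKO library. At 40 to 75%, Cgas was seen in 14 of 1454 DKO and 8 of 1800 control cells, and Ddx41 in 28 and 48. In B cells, Cgas was seen in 37 of 1601 DKO and 92 of 2470 control cells, and Ddx41 in 175 and 368.

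The window took a different place in the 2 libraries. It held 20.7% of the kept control barcodes (exact interval 20.2% to 21.3%) and 10.5% of the DKO barcodes. Cells of 90% or more had the reverse order, with 7.37% of control and 18.9% of DKO barcodes. Among cells of at least 40% hemoglobin, 55.7% of 7357 control cells and 26.3% of 5547 DKO cells lay in the window, and 19.8% and 47.4% lay above it. The share below 75% was alike, 24.5% and 26.2%. The fullest bin of 2.5 percentage points was 87.5 to 90% for control cells (1649 cells) and 90 to 92.5% for DKO cells (1302 cells). Their median hemoglobin share was 86.4% and 89.6%. The peak thus lay inside the window for control cells and above it for DKO cells. The shares of all barcodes depend on the filter: when each barcode had to pass an order-of-magnitude limit on UMIs, the window held 25.3% of control and 15.4% of DKO barcodes.

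**Figure D1:**
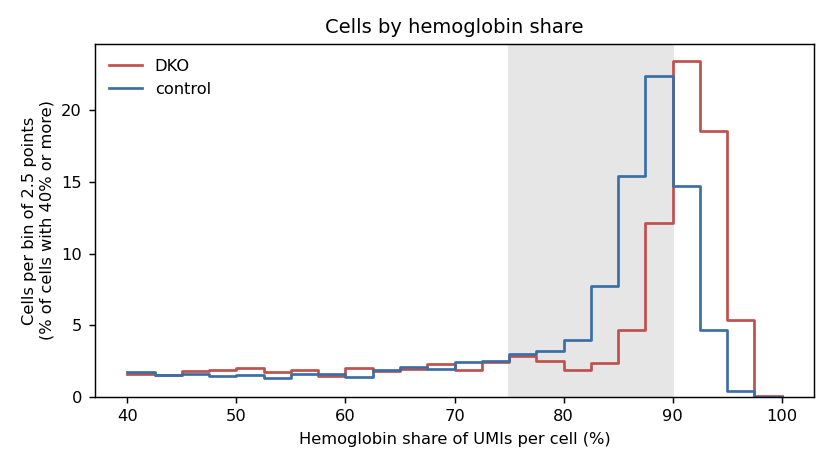
Share of cells per bin of 2.5 percentage points (vertical axis, percent of the cells with at least 40% hemoglobin UMIs) against the hemoglobin share of UMIs per cell (horizontal axis, percent). The grey band is the 75 to 90% window. The control line (blue, 7357 cells) peaks inside it and the DKO line (red, 5547 cells) above it.

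The make-up of the hemoglobin transcripts differed too. The rule used only their sum, so their ratios are free of it, but Hba-a1 and Hba-a2, like Hbb-bs and Hbb-bt, are near-identical copies that can share reads, so the split within each pair is uncertain. Alpha-globin made up 32.7% of the hemoglobin UMIs of control window cells and 40.7% of those of DKO window cells. The ratio of alpha to beta UMIs was 0.486 and 0.686. Cell by cell, the alpha share had a median of 32.8% in 4100 control cells (5th to 95th percentile 27.6% to 38.5%) and of 41.4% in 1461 DKO cells (34.2% to 49.8%), so the ranges overlapped while the medians lay apart. The DKO share was the higher one in each part of the window, with 32.5% against 37.5% at 75 to 80%, 33.5% against 39.6% at 80 to 85%, and 32.6% against 42.1% at 85 to 90%. It was also higher outside the window, with 31.2% against 36.3% at 40 to 75%, 31.3% against 39.1% at 90% or more, and 30.2% against 34.1% in cells of under 15%. Within the pairs the libraries were close: Hbb-bs over Hbb-bt was 3.25 and 3.26, and Hba-a1 over Hba-a2 was 1.24 and 1.30. Of the other globins, the theta-globin copies Hbq1b and Hbq1a had ratios of -0.30 and -0.23, neither past 2-fold.

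Next, each library's window was set against its own neighbouring ranges, to show what these cells kept and lost. Genes were compared when, in each library, they reached a level of 50 in at least one of the groups compared, and a gene was called when it passed a 2-fold difference in both libraries. Against the 40 to 75% range, 99 of 2638 genes were higher (3.75%) and 1387 lower (52.6%). Against the range of 90% or more, 298 of 1162 genes were higher (25.6%) and 0 lower (0%). No gene moved past 2-fold in opposite directions in the 2 libraries in either comparison. Relative to the earlier range most calls were thus losses. Scaled to all UMIs instead, 1 gene was higher than at 40 to 75% and 130 were higher than at 90% or more, so the first of these counts holds only relative to other non-hemoglobin transcripts.

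The genes named next had the largest rises and falls against the 40 to 75% range among genes that reached a level of 200 in each library, in the window or in that range. Bpgm and Mkrn1 rose, with control log2 differences of 2.71 and 2.26. Ubb, 1 of the genes that encode ubiquitin, had 2.23 in control and 2.26 in DKO cells. Gabarapl2, a ubiquitin-like protein of autophagosomes, had 2.12 and 2.24. Ube2l6, the conjugating enzyme of ISG15, had 2.08 and 2.15, and Eif5, a translation initiation factor, 2.11 and 2.62. Among the falls, the histone gene Hist1h3c had -4.87 in control and -5.48 in DKO cells. Cdca8, a subunit of the chromosomal passenger complex, had -4.19 and -4.69, and Cenpf, a kinetochore protein, -3.80 and -4.14. Histone copies share sequence, so single histone genes are uncertain.

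The largest differences from the range of 90% or more were picked by size and level in the same way. Dyrk3, a kinase that dissolves stress granules, had a level of 212 in the control window and 11.2 at 90% or more (444 and 12.0 in DKO cells). Xpo7, a nuclear export receptor needed for nuclear condensation in erythroblasts, had 2473 and 247 (8022 and 534). Btg2, which recruits deadenylases to mRNA, Slfn14, an endoribonuclease that acts on ribosomes, and Lpin2, a phosphatidic acid phosphatase, had control log2 differences of 3.37, 3.24 and 3.23. In the DKO library the same 3 genes had 4.51, 3.72 and 5.34. The genes with the largest gains toward 90% or more stayed under 2-fold in at least 1 library. Hbq1a had -0.66 and -1.25, and Alas2, the first enzyme of heme synthesis, -0.64 and -0.90.

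The window was not uniform inside. From 75 to 80% up to 85 to 90%, 651 of 1546 genes fell past 2-fold in both libraries (42.1%) and 9 rose (0.582%), Bpgm, Gabarapl2 and Ccndbp1, a cyclin D-binding protein, among them. The control window held 453, 863 and 2784 cells at 75 to 80%, 80 to 85% and 85 to 90%, and the DKO window 296, 232 and 933. The uppermost part had 67.9% of the control and 63.9% of the DKO window cells. Median non-hemoglobin UMIs per cell went from 1278 to 654 in control and from 2187 to 913 in DKO cells. The parts are cut by hemoglobin share, so this fall is in large part built in and is not a finding. Malat1, a noncoding RNA kept in the nucleus, changed steeply. In control cells its level was 13683 at 75 to 80%, 2782 at 80 to 85% and 978 at 85 to 90%. In DKO cells it was 18387, 10829.6 and 722, so the loss lay at a higher hemoglobin share. Xpo7 went from 8171 to 2836 and 632 in control cells and from 14431 to 10724 and 2127 in DKO cells, with the same shift. Tent5c rose along the window past 2-fold only in the DKO library, from 5256 to 13423, against 4161 and 6900.1 in control cells.

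**Figure D2:**
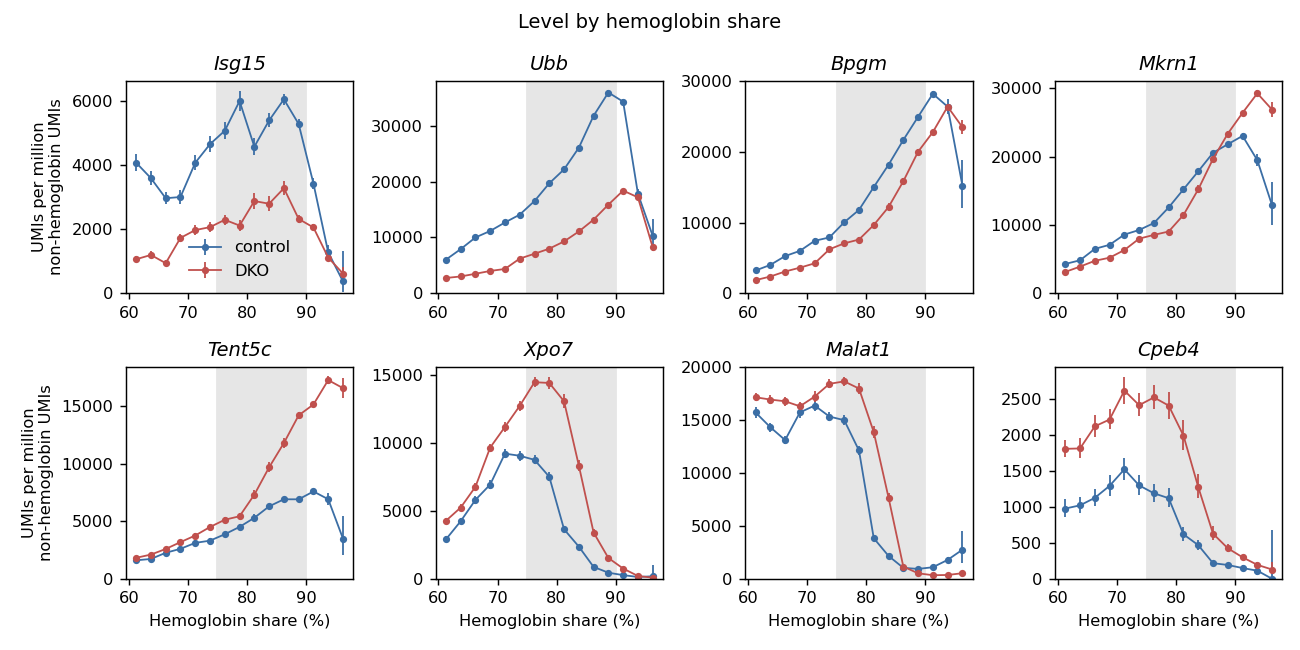
Level of 8 genes (vertical axes, UMIs per 1000000 non-hemoglobin UMIs) against the hemoglobin share of the cells (horizontal axes, percent, bins of 2.5 points) in control (blue) and DKO (red) cells. Bars are 95% counting intervals and the grey band is the 75 to 90% window. Isg15 and Ubb lie lower in DKO cells across the window, while Xpo7 and Cpeb4 lie higher, and Malat1 is lost at a higher share than in control cells.

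The comparison of genotypes takes the whole window of each library. Its cells were not matched by hemoglobin share within the window: 453 of 4100 control and 296 of 1461 DKO cells lay at 75 to 80%. UMIs were summed, so cells with more non-hemoglobin UMIs weighed more. The median of these was 1278 in control and 2187 in DKO cells at 75 to 80%, against 654 and 913 at 85 to 90%. The cell counts thus understate the part of the 75 to 80% cells in both sums. Of 1572 genes with a level of at least 50 in one of the libraries, 164 were at least 2-fold lower in DKO cells (10.4%) and 260 at least 2-fold higher (16.5%), with 1 count added to each sum. The median log2 ratio of all 1572 genes was 0.16. These 2 shares are the background for the counts of each list below. Of all called genes, 61.3% were higher ones.

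Both counts depended on the processing. Scaled to all UMIs, 439 genes were tested, 17 were lower and 99 higher (85.3% of those called), and their median was 0.28. With each of 15 bins of 1 percentage point given the same weight, 171 genes were lower and 106 higher (38.3% of those called). In cells of 4000 to 10000 UMIs, 155 were lower and 60 higher (27.9%), with a median of -0.02. A minimum level of 20 gave 429 lower and 332 higher genes (43.6%), and a minimum of 200 gave 34 and 130 (79.3%). Neither count was thus stable. Of the genes picked for naming, 81 were called, and 29 stayed past 2-fold under each of 16 alternatives, 25 of 51 lower and 4 of 30 higher ones. Cpeb3, Cpeb4, Reln and Fryl were the 4.

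The counts were also taken by part of the window and at matched ranks, views chosen after seeing the data. By part of the window, 166 were lower and 57 higher of 1929 genes at 75 to 80%, 265 and 396 of 1705 at 80 to 85%, and 188 and 75 of 1245 at 85 to 90%. Higher genes thus outnumbered lower ones in the middle part alone. When DKO cells were taken at the ranks of hemoglobin share that the window covers in the control, 73.3% to 92.9%, 144 of 1490 genes were lower and 90 higher (38.5% of those called), with a median of -0.01.

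The called genes were compared with free RNA. Empty droplets could be measured in the control library alone, where 1125245 barcodes of at most 100 UMIs held 4073556 UMIs. Of the 164 lower genes, 130 (79.3%) had a level in these droplets at least 2 times that in the control window, against 518 of all 1572 (33.0%) and 23 of the 260 higher genes (8.85%). Control cells in the window held fewer non-hemoglobin UMIs than DKO cells, as given above. The part of free RNA in the lower genes was not tested. For Isg15, Ubb, Ifi27 and Eif1 the droplets were at 214, 1376, 97.9 and 879.8, below their control window levels of 5473, 29131, 1022 and 5463.

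The called genes also differed in the stretch of genome they span. Higher genes had a median span of 58.6 kb and lower genes of 6.63 kb, against 20.5 kb for all tested genes. At least 100 kb were spanned by 78 of the 260 higher (30.0%), 6 of the 164 lower (3.66%) and 193 of all 1572 genes (12.3%). The counts were not split into exonic and intronic reads.

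Depth per cell differed between the libraries, so the ratios were also taken in cells of like depth. Cells of over 10000 UMIs were 93 control cells with 6.13% of the non-hemoglobin UMIs and 383 DKO cells with 43.9% of them. In these, 199 genes were lower and 104 higher. In cells of under 4000 UMIs, which gave only 2.62% of the DKO non-hemoglobin UMIs, 139 were lower and 533 higher. Tpt1 kept close ratios at all depths (-1.08, -0.99 and -1.11), while others did not. The Isg15 ratio was -0.81 in cells of under 4000 UMIs, -1.19 from 4000 to 10000 and -1.39 over 10000. Xpo7 was at 1.90, 1.03 and 1.18, and Malat1 at 1.16, 0.60 and 0.58.

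**Figure D3:**
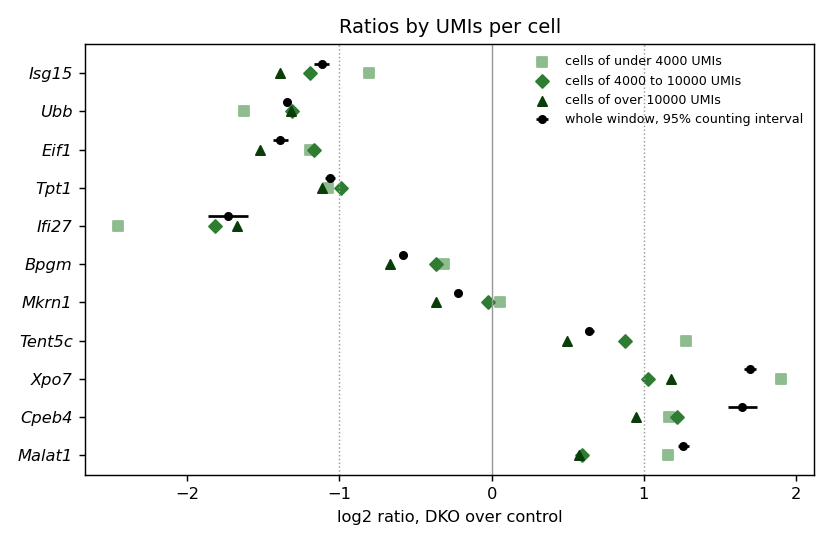
Log2 ratio of DKO over control (horizontal axis) of 11 genes (vertical axis) in the whole window (black, with 95% counting intervals) and in window cells of under 4000, 4000 to 10000 and over 10000 UMIs (green symbols). Dotted lines mark 2-fold. Isg15, Ubb, Eif1, Tpt1 and Ifi27 lie below 0 and Tent5c, Xpo7, Cpeb4 and Malat1 above 0 at each depth.

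Interferon-stimulated genes were the list closest to the label, through Isg15. Of 39 measured members, 18 reached the minimum, and 8 of them were at least 2-fold lower in DKO cells (10.4% of all tested genes) and 0 higher, with a median of -0.71. Isg15, on chromosome 4 from 156199424 to 156200818, fell by 1.12 on the log2 scale (interval -1.16 to -1.07), but by 0.84 and so short of 2-fold in cells of 80 to 85%. Its ratio was -1.39 at 40 to 75% and -0.88 at 90% or more, so the difference was not limited to the window. Ifi27, an interferon-induced mitochondrial protein, was at 1022 in control and 308 in DKO cells (log2 ratio -1.73, interval -1.86 to -1.60), and Xaf1, an interferon-induced partner of apoptosis inhibitors, at 96.0 and 26.2 (-1.85). Both stayed past 2-fold under each alternative. Bst2, the membrane tether of budding virus, was at 52.3 and 16.1 (-1.67), and Ifitm3, which blocks virus entry, at 303 and 111 (-1.45), short of 2-fold at 75 to 80% (-0.87). Empty droplets held Bst2 at 128 and Ifitm3 at 400.0, more than the control window, and the part of free RNA was not tested. Other abundant members did not pass 2-fold. Rsad2, an antiviral radical enzyme, was at 3629 and 3465 (-0.07), Ube2l6 at 6831 and 5197 (-0.39), and Isg20, an RNA exonuclease, at 4232 and 3152 (-0.43). Ifit3 had 0 UMIs in the DKO window.

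Promoters of the list were searched for the interferon response motif, since its members could share it. The motif was GAAA, any 2 bases and GAAA again, on either strand, in windows of 250 bases before to 50 after the start of transcription from RefSeq (GRCm38.p6). It was found in 1131 of all 32851 promoters (3.44%), or by gene in 1079 of 27025 (3.99%), and in 54 of the 897 tested genes with a promoter that were not called (6.02%). Of the 18 tested members 15 had a promoter in the table, and 7 of these held the motif. Lower members held it in 4 of 7 cases and the other tested members in 3 of 8. Isg15 and Ifitm3, which were lower, and Rsad2, which was not, are shown with the motif in capitals. They lie on the minus strand at chr4:156200769-156201068, chr7:141010695-141010994 and chr12:26456403-26456702, with 3, 2 and 1 matches. The matches in Isg15 overlap, and a match is a description of letters and not a bound site.
Isg15: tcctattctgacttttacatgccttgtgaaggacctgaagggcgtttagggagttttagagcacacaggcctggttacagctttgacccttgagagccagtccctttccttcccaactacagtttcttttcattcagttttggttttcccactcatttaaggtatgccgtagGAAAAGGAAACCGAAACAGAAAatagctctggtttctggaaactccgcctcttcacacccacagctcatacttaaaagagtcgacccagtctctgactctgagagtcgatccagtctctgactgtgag
Ifitm3: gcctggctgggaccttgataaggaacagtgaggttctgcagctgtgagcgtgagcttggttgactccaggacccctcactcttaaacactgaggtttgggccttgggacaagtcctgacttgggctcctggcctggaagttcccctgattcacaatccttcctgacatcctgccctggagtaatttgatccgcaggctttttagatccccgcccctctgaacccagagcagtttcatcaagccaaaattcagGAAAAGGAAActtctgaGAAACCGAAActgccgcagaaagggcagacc
Rsad2: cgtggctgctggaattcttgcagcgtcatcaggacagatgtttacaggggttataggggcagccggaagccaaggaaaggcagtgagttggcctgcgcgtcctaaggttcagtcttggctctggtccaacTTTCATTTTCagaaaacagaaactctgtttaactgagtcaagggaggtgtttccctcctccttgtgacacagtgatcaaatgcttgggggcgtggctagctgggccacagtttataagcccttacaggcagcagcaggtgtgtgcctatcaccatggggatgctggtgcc

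Ubiquitin genes and erythroid ubiquitin enzymes were the list with the highest summed level after hemoglobin, 76082 in control and 55887 in DKO cells. Of 20 tested members 2 were lower, Ubb among them, and 3 higher, with a median of 0.16 (-0.06 at 75 to 80%). Ubb was the most abundant control gene of the list, at 29131 in control and 11469.9 in DKO cells, a log2 ratio of -1.34 (interval -1.37 to -1.32). Its ratio stayed between -1.12 and -1.38 under the alternatives. Ubb shares sequence with other ubiquitin genes, so its reads cannot be assigned with certainty. Ratios of the list as a whole were mixed, with 9 members below 0 and 11 above 0. The named conjugating enzymes were among those below 0, short of 2-fold. Ube2b, an enzyme of histone ubiquitination, had a ratio of -0.31 and Ube2c, an enzyme of the anaphase-promoting complex, -0.62.

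Genes of organelle clearance and enucleation were mostly above 0. Of 16 tested members 5 were higher and 1 lower (16.5% and 10.4% of all tested genes), with a median of 0.47. Xpo7, on chromosome 14 from 70654246 to 70766628, was at 2473 in control and 8022 in DKO cells, a log2 ratio of 1.70 (interval 1.66 to 1.74). It was 0.82, short of 2-fold, at 75 to 80%, and 0.19 in the range below the window. Tmcc2, a membrane protein of the endoplasmic reticulum, was at 2438 and 6524 (1.42), and Ulk1, the kinase that starts autophagy, at 69.8 and 195 (1.48). In cells of 4000 to 10000 UMIs neither passed 2-fold, and the lowest ratios, at 75 to 80% for Tmcc2 and in those cells for Ulk1, were 0.64 and 0.54. The mitophagy receptor Bnip3l (ratio -0.13) and Gabarapl2 (-0.59) were the most abundant members with Xpo7 and Tmcc2, and stayed within 2-fold. Alox15, a lipoxygenase of organelle breakdown, had 0 UMIs in both windows.

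Nuclear-retained RNA had 2 tested members and both had ratios above 0. Malat1 was at 3652 in control and 8746 in DKO cells, a log2 ratio of 1.26 (interval 1.23 to 1.29). It reversed to -0.44 at 85 to 90% and did not pass 2-fold in 4 further alternatives, with 0.76 for 15 equal bins and 0.43 at 75 to 80%. Neat1, the RNA scaffold of paraspeckles, had a ratio of 0.91, with -0.86 at 85 to 90%. Thinned, Malat1 was seen in 17.7% of control and 26.1% of DKO window cells, against 87.2% and 84.9% of B cells. Most window cells of either library thus gave no Malat1 UMI at that depth. The depth includes hemoglobin UMIs, so window cells kept fewer other UMIs than B cells, and the contrast with B cells is in part built in.

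Regulators of poly(A) tails and mRNA fate were mostly above 0. Of 15 tested members 5 were higher and 1 lower (16.5% and 10.4% of all tested genes), with a median of 0.79. Cpeb4, on chromosome 11 from 31872211 to 31935634, a protein that binds 3' elements and holds back translation in late erythroblasts, was at 446 in control and 1397 in DKO cells, a log2 ratio of 1.64 (interval 1.55 to 1.74). It stayed past 2-fold under the 16 alternatives, down to 1.09, but was 0.95 and so short of 2-fold in cells of over 10000 UMIs. Its relative Cpeb3 was at 127 and 529 (2.06), with a lowest value of 1.03. Pan3, a subunit of a deadenylase, had a ratio of 1.80 but 0.41 at 85 to 90%. Slfn14 (1.09) and Btg2 (1.23) were not past 2-fold with 15 equal bins or in cells of 4000 to 10000 UMIs, and reached lows of 0.26 and 0.25 at 75 to 80%. Pabpc1, the main poly(A)-binding protein, was at 8829 and 15337 (0.80), and Tent5c had a ratio of 0.64 (interval 0.61 to 0.67), both within 2-fold. The ratio of Tent5c grew with the hemoglobin share, from 0.13 at 40 to 75% to 1.10 at 90% or more. Mkrn1 had -0.22, and Rbm38, which stabilises late erythroid mRNA, 0.79.

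Heme synthesis genes had 4 of 14 members below 0. All were tested, 0 were lower and 2 higher (10.4% and 16.5% of all tested genes), with a median of 0.47. At 85 to 90% the median of these members was 0.11, and -0.01 when the minimum level was applied anew to that part. Alas2 was level at 10395 in control and 10244 in DKO cells (-0.02). Slc25a37, the importer of iron into mitochondria, had a ratio of 0.84, and Fech, which inserts the iron, 0.58. Abcb10, a mitochondrial transporter needed for heme, was at 208 and 589, a fold of 2.83, but had log2 ratios of 0.78 at 75 to 80% and 0.98 with 15 equal bins. Uros, the synthase of uroporphyrinogen, had 1.14 and lost its call under 7 alternatives, down to 0.53.

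Iron genes were mixed. Of 8 tested members 1 was lower and 1 higher (10.4% and 16.5% of all tested genes), with a median of -0.45. The ferritin chains Fth1, at 12403 in control and 7657 in DKO cells (-0.70), and Ftl1 (-0.52) had ratios below 0, within 2-fold. Tfrc, the transferrin receptor through which erythroid cells take up iron, was at 310.4 and 792 (1.35). It was within 2-fold in 4 alternatives, with the lowest ratio, 0.69, at 85 to 90%. Pcbp1, an iron and RNA-binding chaperone, had -1.15 (-0.70 at 75 to 80%), and its level in empty droplets, 273, exceeded that in the control window, 88.7. Glrx5, for iron-sulfur clusters, and Ncoa4, which delivers ferritin for breakdown, had -0.17 and 0.21.

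Membrane and skeleton genes had the highest share of higher members among the lists with more than 2 tested members. Of 22 tested members 9 were higher (16.5% of all tested genes) and 0 lower, with a median of 0.83. Kel, a blood group endopeptidase, was at 220.1 in control and 637 in DKO cells (1.53, interval 1.40 to 1.67), with 0.86 at 75 to 80%. Ermap, an erythroid membrane protein of the immunoglobulin family, had 1.40 and stayed within 2-fold in 5 alternatives, down to 0.69. The abundant members did not pass 2-fold. Epb41, which ties spectrin to actin, was at 5788 and 9394 (0.70), and the anion exchanger Slc4a1 at 3509 and 6219 (0.83). The scaffold protein Mpp1 was level (0.00).

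The erythroid transcription factors that were tested all had ratios above 0. Of 10 tested members 2 were higher and 0 lower (16.5% and 10.4% of all tested genes), with a median of 0.72. Foxo3, which drives late erythroid and antioxidant genes, was at 345 in control and 952 in DKO cells (1.46), and at 0.90 at 85 to 90%. Nfe2, a globin gene activator, had 1.13, and 0.53 at 85 to 90%. E2f2, a cell cycle factor of erythroblasts, had 0.74, and Mxi1, which opposes MYC, 0.45. Lmo2, a bridging factor, had 0.19, and -0.06 in cells of 4000 to 10000 UMIs.

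Translation genes included some of the larger decreases. Of 11 tested members of the translation control list 5 were lower and 1 higher (10.4% and 16.5% of all tested genes), with a median of -0.94. Scaled to all UMIs the median became 0.11. Eif1, which selects start codons, was at 5463 in control and 2087 in DKO cells (-1.39, interval -1.44 to -1.34), and just short of 2-fold at 75 to 80% (-0.98). In the range below the window its ratio was -0.22. Eif4ebp1, a repressor of cap-dependent initiation, had 214 and 22 UMIs (-2.53, interval -3.29 to -1.95). Eif4a1, the initiation helicase, had -1.55, with empty droplets at 498 and the control window at 131. Eif5 had 0.01, Ppp1r15a, which restarts translation after stress, 0.75, and the elongation factor Eef1a1 -0.94.

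Ribosomal protein genes had ratios below 0 nearly throughout. Of 79 tested members 78 were below 0, 6 were at least 2-fold lower and 0 higher, with a median of -0.74. Over all tested genes 10.4% were lower, and the difference from that share was not tested. Ribosomal protein pseudogenes make single members uncertain. They made up 5.34% of control and 3.33% of DKO non-hemoglobin UMIs. The median was -0.40 at 40 to 75% and -0.79 at 90% or more. Their summed level was 53405 in the control window and 103705 in empty droplets, and their part in the ratios was not tested. Rplp0, of the ribosomal stalk, was at 2039 and 961 (-1.08), and Rpsa had -1.09. Both came within 2-fold at 75 to 80%, with -0.83 and -0.89. Rpl41 stood apart at 0.11.

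Red cell glycolysis rested on Bpgm, whose ratio was -0.58 (interval -0.60 to -0.56) and between -0.71 and -0.30 under the alternatives. Of 5 tested members 2 were lower and 0 higher (10.4% and 16.5% of all tested genes), with a median of -0.76. The lower ones, Pkm (-1.55), which makes pyruvate, and Aldoa (-1.26), an aldolase, rested on 169 and 35 and on 185 and 47 UMIs, and empty droplets held both at higher levels (308 and 234) than the control window (55.9 and 61.2). At 75 to 80% Aldoa was within 2-fold (-0.74). Hk1, the red cell hexokinase, had 0.84.

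Antioxidant enzymes had 17 tested members and 0 called ones, with a median of -0.47 (0.05 when scaled to all UMIs). The peroxidase Gpx1 was the most abundant, at 19202 in control and 20572 in DKO cells (0.10). Prdx2, a peroxiredoxin of red cells, had -0.04, and Blvrb, a reductase of flavin and biliverdin, -0.59. Oxidative phosphorylation genes of the nucleus had 31 tested members, 2 lower and 0 higher, with a median of 0.03, which fell below 0 under 6 alternatives, down to -0.09. The 2, Cox5a (-1.35) and Atp5g1 (-1.12), encode subunits of cytochrome oxidase and ATP synthase, and Atp5g1 lost its call under 5 alternatives (-0.65 at 80 to 85%). Mitochondrially encoded genes had 10 tested members and 0 called, with a median of -0.23, which was 0.20 in cells of 4000 to 10000 UMIs. Proteasome subunits had 11 tested members, 2 lower and 0 higher, with a median of -0.41, and Psma7 had the lowest ratio (-1.22, from 176 and 46 UMIs, and -0.89 in cells of 4000 to 10000 UMIs).

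Of the mitosis and replication genes Ube2c had the highest level, 3033 in control and 1973 in DKO cells. The background for the counts that follow was 10.4% lower and 16.5% higher among all tested genes. Of 12 tested mitosis genes 1 was lower, Cdk1, the mitotic kinase (-1.55, from 188 and 39 UMIs), with a median of -0.43 (0.02 at 80 to 85%). Of 3 tested replication genes 2 were lower, Pcna (-1.36), the sliding clamp, and Dut (-1.24), which removes dUTP, but they had -0.75 at 75 to 80% and -0.99 at 80 to 85%. Histone genes had 17 tested members, 3 lower and 1 higher, with a median of -0.12 (0.03 at 78 to 87%). Hist1h2ap had the lowest ratio (-2.47), and H2afz, a histone variant at promoters, had -1.20 (-0.92 at matched ranks). Empty droplets exceeded the control window for these 5 genes: they held Cdk1 at 172, Pcna at 304, Dut at 263, Hist1h2ap at 608 and H2afz at 1330.0, against control window levels of 62.2, 87.4, 67.8, 121 and 393.

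Genes of cell death and DNA sensing were mostly under the minimum. Of 27 genes of the BCL2 family, caspases and related factors 4 were tested and 1 was lower, with a median of -0.14. The lower one, Tpt1, a translationally controlled survival factor, was at 10041 in control and 4809 in DKO cells (-1.06, interval -1.10 to -1.03), and within 2-fold under 6 alternatives. Bcl2l1, the survival factor of late erythroblasts, had 0.82 and Mcl1, its relative, -0.15. Of 20 p53 targets 2 were tested: Rps27l had -1.04, within 2-fold under 4 alternatives (-0.94 at 85 to 90%), and Trp53inp1 0.86. Of the cytosolic DNA sensing genes only Samhd1, which hydrolyses nucleotides, was tested (-0.36), and Trex1, a DNA exonuclease, had 0 UMIs in both windows.

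Among the 10 largest increases at a level of at least 200, 8 spanned over 100 kb, all but Ighg2c and Fbxo34. Reln, which encodes the secreted protein reelin, was at 149 in control and 567 in DKO cells (1.93). March3, a membrane ubiquitin ligase, was the most abundant, at 1027 and 3647 (1.83), but had 0.90 at 75 to 80%. Frmd4a (1.88), a scaffold of cell polarity, Zdhhc14 (1.84), a palmitoyltransferase, Fbxo34 (1.78), an F-box protein, Slc22a23 (1.77), a solute carrier, and Fryl (1.74), a relative of the morphogenesis gene furry, followed. Of these genes Reln and Fryl stayed past 2-fold in each part of the window, and the others came within 2-fold in at least 1 part. The largest ratio, Ighg2c (3.72), an immunoglobulin heavy chain, came from 407 DKO UMIs of which 323 lay in a single cell, and was 0.80 at 80 to 85%.

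Of the 10 largest decreases 7 had a higher level in empty droplets than in the control window, while Ifi27 and Gm10076 did not. Ptma, an acidic chromatin protein, was at 649.6 in control and 225 in DKO cells (-1.53), with 2767 in the droplets. Ppia, a prolyl isomerase, had -1.41 and Actg1, cytoplasmic actin, -1.42, with 1401 and 1704 in the droplets against 384 and 391 in the control window. Gm10076 (-1.57) is a predicted gene. Actin and thymosin genes as a list had 14 tested members, 7 lower and 0 higher, with a median of -0.95. Tmsb4x, which binds free actin, was at 2906 and 1118 (-1.38), and at 9838 in the droplets. The summed level of this list was 26765 in empty droplets, 9351 in the control and 4859 in the DKO window.

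Markers of other cell types were low in the window and mostly lower in DKO cells. Beside the counts of called markers, 10.4% of all tested genes were lower and 16.5% higher. Cells in which they passed 5% of the non-hemoglobin UMIs numbered 22 control and 11 DKO cells, and 4 and 1 cells exceeded the doublet score threshold of 0.228 that Scrublet set for the DKO library. Neutrophil markers summed to 6788 in control and 3507 in DKO cells, with S100a9 as the most abundant (2840.4 and 1487). Of 8 tested members 5 were lower, and the sum was 0.184 times that of the empty droplets. Granulocyte-monocyte progenitor markers summed to 516 and 164, with 4 of 4 tested members lower and Elane on top (159.8 and 53.5). Megakaryocyte and platelet markers summed to 662 and 133, with 2 of 2 lower, Ppbp (-2.62) and Pf4 (-2.20). Monocyte and macrophage markers summed to 662 and 288, with 5 of 6 lower and Hmox1 on top, and stromal and endothelial markers to 309 and 117, with 2 of 2 lower, Cxcl12 (-2.28) and Fabp4 (-1.42, -0.49 at 80 to 85%), and Kdr at 0 in DKO cells. Basophil and dendritic markers summed to 127 and 51.9, with Bst2 lower and Cd209a at 0 in DKO cells, and T and NK cell markers to 70.8 and 19.8, with none tested and Gzma at 0 in DKO cells. B cell markers summed to 1052 and 1147 with Igkc on top (686 and 678). Of their 5 tested members 1 was higher, Cd79a (1.21), which reversed to -0.61 at 85 to 90%. Plasma cell markers summed to 232 and 331, with Igha lower (-1.07, within 2-fold under 5 alternatives) and Ighg2c higher. The DKO sum rested on 619 UMIs, of which 323 were Ighg2c in a single cell, and without that cell's Ighg2c it would lie below the control sum. Early erythroid genes had 6 tested members, 2 lower and 0 higher, with a median of -0.93 that became 0.22 when scaled to all UMIs, and Kit, the stem cell factor receptor, was at 0 in DKO cells. Every one of these sums except early erythroid was below that of the empty droplets, and their part in the ratios of shared genes was not tested.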

How the data were processed

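Input was the deposited UMI counts of 32285 genes, which the authors made with Cell Ranger 7.1.0 per the file headers, on mm10. The control matrix lists every barcode and the DKO matrix called cells alone. For 40 duplicated symbols the identifier with more UMIs was used. No doublets were removed and no free RNA was subtracted. UMIs were summed over the window cells of each library and compared as levels per 1000000 non-hemoglobin UMIs, since the rule fixes the hemoglobin share, with exact Poisson, conditional binomial and Clopper-Pearson intervals. The call at 2-fold was checked on simulated data. Positions came from GENCODE M21, in which 32235 identifiers and all 176 named genes were found. Scrublet marked 0 control cells at its own threshold of 0.637, so the DKO threshold was used for both libraries. Python 3.11.15, numpy 2.4.6, scipy 1.17.1, pandas 2.3.3 and scanpy 1.11.5 were used.

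Named genes were the 4 markers, Ddx41 and Cgas, the 15 of highest level, the 10 largest decreases and increases at a level of at least 200, the 8 largest rises and falls against each neighbouring range at that level in each library, and up to 4 members of highest level and 2 of largest ratio per list. The members and the 37 lists were chosen with earlier results of these data known. The alternatives changed scaling, filters, cell weights, depth, minimum level and added count. Parts of the window, matched ranks and a total without Gm42418 and AY036118 were added after seeing the data.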

Additional observations from a re-analysis of the deposited data

How the results depend on the processing

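There were 14 alternatives fixed beforehand and 5 chosen after seeing the data. Under the 16 that apply to gene ratios, 79 of 81 called named genes kept their sign. The 2 that reversed did so at 85 to 90%, Malat1 to -0.44 and Cd79a to -0.61. Genes at least 2-fold lower in DKO cells, 164 of 1572, became 17 when scaled to all UMIs, 429 with a minimum level of 20, 34 with a minimum of 200 and 265 at 80 to 85%. Higher genes, 260, became 99 when scaled to all UMIs, 106 with 15 equal bins, 60 in cells of 4000 to 10000 UMIs, 130 with a minimum of 200, 57 at 75 to 80%, 396 at 80 to 85%, 75 at 85 to 90% and 90 at matched ranks. A higher minimum tests fewer genes. The cause of the other shifts was not tested. Of the other counts, 52 stayed within 1.5 times. The window held 23.6% of control and 11.3% of DKO barcodes of at least 2000 UMIs, 25.3% and 15.4% above the order-of-magnitude threshold, and 26.4% and 14.1% without barcodes over 5% of other lineages. Scaled to all UMIs 1 gene was higher than at 40 to 75% and 130 than at 90% or more. List medians moved past 1.5 times in 2 cases and not in 349, both when scaled to all UMIs. Ratios of named genes lay outside their main counting interval in 866 cases and inside in 1948. No paired analysis was possible because there was 1 library per genotype.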

Other observations

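The most abundant gene of the window outside hemoglobin was Gm42418, on chromosome 17 from 39846958 to 39848788, at 147209 in control and 145190.0 in DKO cells (-0.02). It overlaps an annotated rRNA gene on the other strand, so part of its UMIs may come from ribosomal RNA. Cmss1, on chromosome 16 from 57302000 to 57606864, was also among the 15 genes of highest level, at 9047 and 8276 (-0.13). In the control library Gm42418 was at 150943 in empty droplets, close to its window level.

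Several other abundant transcripts of the window were within 2-fold. Car2, a carbonic anhydrase, had 11193 in control and 12209.9 in DKO cells (0.13). Oaz1, an inhibitor of polyamine synthesis, had 11566 and 7625 (-0.60), and H3f3a, which encodes a replacement histone, 11004 and 8356 (-0.40). Xist had 0 UMIs in both windows, and Y-linked genes were seen in both.

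Limits apply to every ratio above. Each genotype had 1 library, so mouse, library and genotype cannot be told apart. DKO window cells were deeper, and the libraries were not matched by hemoglobin share within the window. Compared with control window cells, a larger share of DKO window cells lay at 75 to 80% and a smaller share at 80 to 85%. The last percentage point below 90% held 23.4% of the DKO and 16.5% of the control window cells. Empty droplets were measured for the control library alone, so free RNA was not subtracted and could not be compared between the libraries. Exonic and intronic reads were not separated. Levels relative to non-hemoglobin UMIs say nothing on the amount per cell, and copies of globin, ubiquitin, histone and ribosomal protein genes can share reads.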
